A study of Mus musculus with 12 samples.

Results

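Keratins, cell junction proteins and their regulators are best known from epithelia, and the 9 genes described here are members of these families that were examined in macrophages of the lung airspaces (alveolar macrophages): Krt79, Krt19, Krt18, Krt8, Perp, Plet1, Cdh1, St14 and Patj. They were chosen by their symbols, with earlier results on the same arrays in view, including how some of them behaved in mice without Bach2, and each gene was matched to the probes that carry a transcript accession of it. All 9 were found among the 20018 named genes of the array, by 14 probes in all, and 7 of the 9 passed the background filter, as did 23124 genes or transcripts in total. The filter asked for a signal well above background in all 3 mice of some genotype, which Krt18 and Krt8 did not meet.

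The cells came from bronchoalveolar lavage of female C57BL/6 mice aged 8 to 9 weeks and were sorted by flow cytometry. There were 4 genotypes with 3 mice each, namely mice without Bach1 and Bach2 (DKO), mice without Bach2 (Bach2 KO), mice without Bach1 (Bach1 KO) and wild type (WT). The labels do not say how the alleles were made or whether their loss was confined to macrophages. RNA of each mouse was amplified, labelled with Cy3 and hybridised to 1 single-colour Agilent 8x60K array, so every value below belongs to 1 mouse. Levels are log2 signals from which each array's 75th percentile was subtracted, so that 0 marks that percentile, and levels of different probes are not compared. A genotype's level is given as mean ± SD and a difference between genotypes as estimate ± SE, in log2 units with n = 3 mice per genotype. In sorted bulk cells, fewer cells of a type and less RNA per cell cannot be told apart.

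Keratins are the intermediate filament proteins of epithelia, where a type I and a type II chain pair to form a filament. Desmosomes anchor these filaments at the cell border, E-cadherin builds adherens junctions, and tight junctions are organised with the help of polarity scaffolds such as the Crumbs complex. Bach1 and Bach2 are repressors that bind DNA together with small Maf proteins, and some keratin and junction genes are known to be expressed by alveolar macrophages outside any epithelium.

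On the 12 arrays, 45.18% to 72.35% of 59305 spots were well above background and none was saturated, and arrays of 1 genotype correlated at 0.940 to 0.988 over genes. Bach1 averaged 2.48 ± 0.71 in DKO and 2.50 ± 0.08 in Bach1 KO cells, against 3.94 ± 0.16 in Bach2 KO and 3.93 ± 0.31 in WT cells. The brighter Bach2 probe lay between -4.77 in Bach2 KO and -2.90 in Bach1 KO cells and at -4.24 ± 3.37 in WT cells, so it does not check the Bach2 genotypes. The position of these probes relative to the deleted parts is not known here. All 3 DKO arrays lay on a slide of their own that was scanned later, so that the DKO genotype and that slide cannot be told apart. WT, Bach1 KO and Bach2 KO replicates 1 and 2 shared another slide, and Bach2 KO replicate 3 lay on a further slide. Of 10 alveolar macrophage markers, 10 were well above background on every array of Bach2 KO, Bach1 KO and WT cells, and 9 on every DKO array. Among them Siglecf was at -2.56 ± 0.45 in DKO and -0.59 ± 1.09 in Bach2 KO cells, against 5.26 in Bach1 KO and 5.74 ± 0.46 in WT cells. Chil3 lay between 7.43 and 8.18 and Fabp4 between 6.30 and 6.93 in all 4 genotypes. As scaled here, every marker of the list averaged lower in Bach2 KO than in WT cells. The differences were -8.88 for Fabp1, -6.33 for Siglecf, -5.29 for Marco, -1.77 for Ear2 and -1.28 for Car4. Those of Pparg (-0.99), Chil3 (-0.75), Itgax (-0.71), Fabp4 (-0.58) and Mrc1 (-0.2) were smaller.

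Krt79, Krt19, Perp, Plet1 and Patj were bright in WT and Bach1 KO cells and dimmer in both genotypes without Bach2. Krt79, a type II keratin known from the sebaceous gland and the hair follicle opening, had levels of -0.80, -0.35 and -1.0 in DKO cells, 2.62, 2.22 and 1.86 in Bach2 KO cells, 7.62, 7.0 and 7.80 in Bach1 KO cells, and 8.03, 7.51 and 7.57 in WT cells. The DKO arrays were the lowest, the Bach2 KO arrays came next, and the Bach1 KO and WT arrays overlapped at the top. Krt19, the small type I keratin of simple epithelia, was at -2.89, -6.00 and -6.13 in DKO cells, the last 2 of these not well above background, at 2.46, 1.86 and 2.12 in Bach2 KO cells, at 6.95, 6.10 and 7.01 in Bach1 KO cells, and at 6.89, 6.53 and 6.86 in WT cells. Its order over the genotypes was that of Krt79, with DKO replicate 1 standing apart from the other DKO mice. Krt18 and Krt8, the type I and type II keratins that pair in simple epithelia, stayed near background in every genotype. Krt18 lay between -6.70 and -3.77 over 11 arrays, 1 WT spot having been left out as an outlier. It was well above background on 2 of 3 DKO arrays and on 1 array of each other genotype, in WT cells by the spot left out. Krt8 lay between -8.36 and -4.66 over 12 arrays, with none of the Bach1 KO or WT arrays well above background. DKO replicate 1 was also the highest array for Krt18 (-3.77) and for Krt8 (-4.66), well above background for each.

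Perp, a tetraspan membrane protein of desmosomes that is a target of p53, was measured at -3.42, -3.10 and -6.19 in DKO cells, the last not well above background, at 0.08, 0.09 and 1.12 in Bach2 KO cells, at 5.42, 5.28 and 5.83 in Bach1 KO cells, and at 5.98, 6.00 and 5.62 in WT cells. Plet1, a glycolipid-anchored surface protein first described in placenta and epithelial progenitors, was at 0.76, -0.36 and -0.24 in DKO cells, at 5.34, 5.62 and 4.83 in Bach2 KO cells, at 7.23, 6.63 and 7.59 in Bach1 KO cells, and at 7.48, 7.14 and 7.30 in WT cells. For both genes the DKO arrays lay below all Bach2 KO arrays and these below all Bach1 KO and WT arrays, and the last pair of genotypes overlapped. The step between Bach2 KO and WT cells was the smaller part of the whole for Plet1 and the larger part for Krt79.

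Patj, a scaffold with many PDZ domains in the Crumbs polarity complex, had levels of -3.32, -3.98 and -3.47 in DKO cells, -4.51, -3.55 and -2.89 in Bach2 KO cells, 3.58, 3.24 and 3.51 in Bach1 KO cells, and 3.16, 3.47 and 3.60 in WT cells. The first Bach2 KO value was not well above background. Here the DKO and Bach2 KO arrays overlapped each other, as did the Bach1 KO and WT arrays, and a wide gap separated the pairs.

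The remaining members, Cdh1 and St14, were higher in Bach2 KO and in DKO than in WT cells. Cdh1, which encodes E-cadherin, was at 4.22, 4.54 and 4.21 in DKO cells and at 4.46, 4.29 and 4.46 in Bach2 KO cells, against 2.53, 2.39 and 2.65 in Bach1 KO cells and 2.61, 2.28 and 1.49 in WT cells. Both genotypes without Bach2 lay above both genotypes with it, and WT replicate 3 was the lowest array. St14, which encodes the membrane serine protease matriptase, was at -2.49, -2.74 and -2.34 in DKO cells, at 1.14, 0.48 and 1.31 in Bach2 KO cells, at -0.82, -2.23 and -4.30 in Bach1 KO cells, and at -4.85, -4.08 and -4.14 in WT cells. St14 was highest in Bach2 KO cells, the DKO arrays fell within the range of the scattered Bach1 KO arrays, and 1 Bach1 KO array, replicate 3, was not well above background and lay within the WT range.

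**Figure D1:**
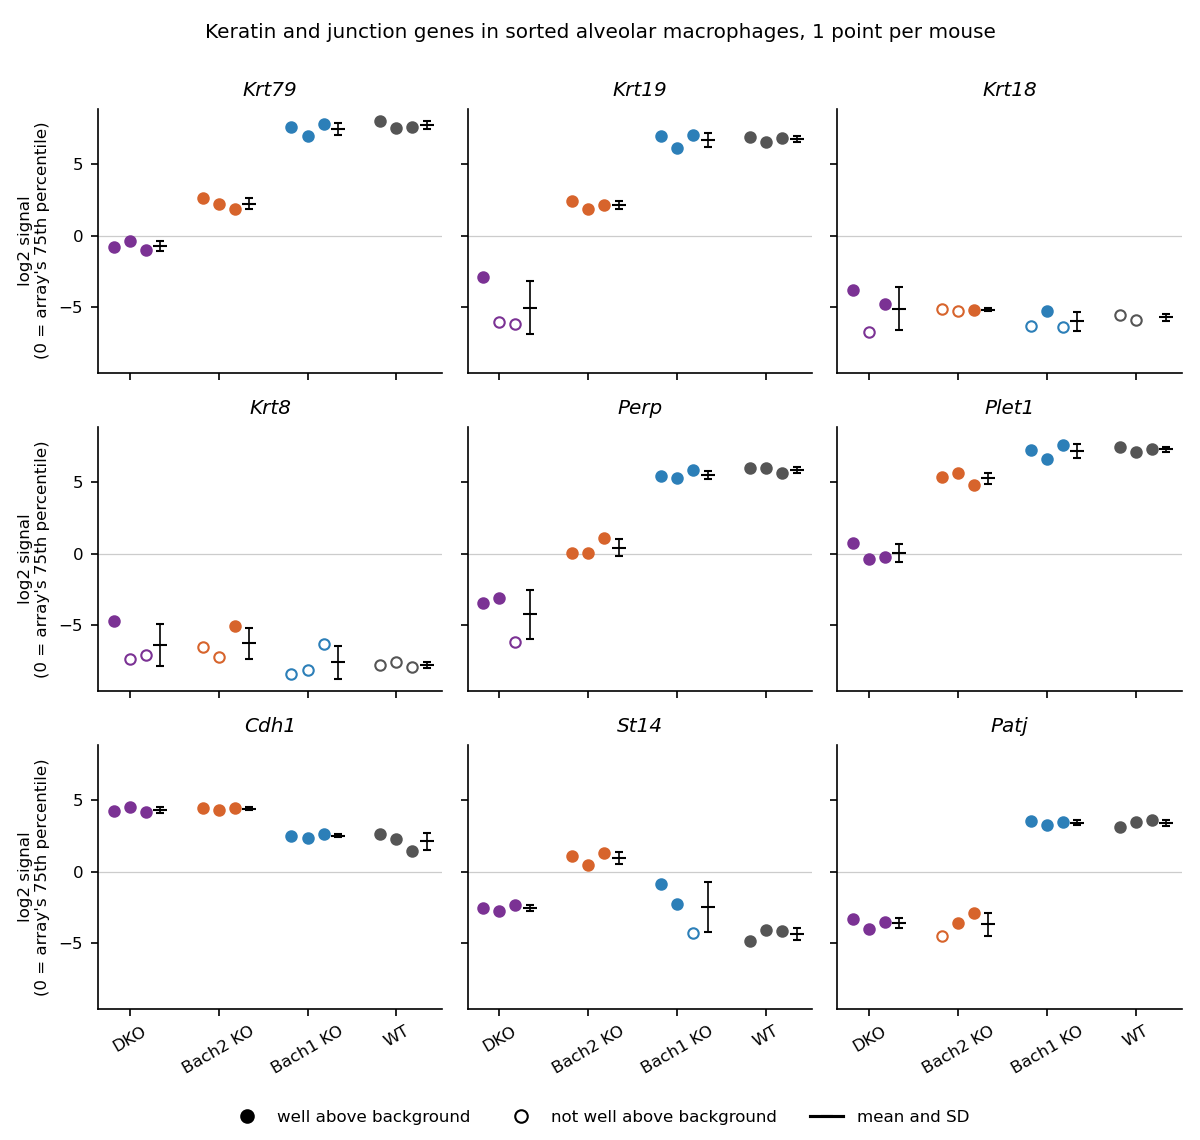
Log2 signal of the 9 genes on each array (1 point per mouse; 0 is the array's 75th percentile) for DKO, Bach2 KO, Bach1 KO and WT cells, with means and SD beside the points and open points where a spot was not well above background. Krt79, Krt19, Perp and Plet1 step down in Bach2 KO cells and further in DKO cells, Patj steps down alike in both, Cdh1 steps up alike in both, and Krt18 and Krt8 stay at the bottom.

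Because these genes were proposed with their behaviour without Bach2 in view, the comparisons of Bach2 KO and DKO cells with WT cells are descriptions and carry no test. Patj had the largest of the 7 differences, -7.06 ± 0.38 or 133-fold lower in Bach2 KO than in WT cells, with means of -3.65 ± 0.81 in Bach2 KO and 3.41 ± 0.22 in WT cells. Krt79 was 44.4-fold lower (-5.47 ± 0.29), Perp 43.3-fold lower (-5.43 ± 0.65) and Krt19 24.5-fold lower (-4.62 ± 0.68). Plet1 was 4.12-fold lower (-2.04 ± 0.34), a size that shrank to -1.14 with quantile normalization and to -1.35 without scaling. Cdh1 was 4.85-fold higher (2.28 ± 0.27) and St14 was 40.4-fold higher (5.34 ± 0.68). Without scaling, which put the median of all genes at 0.39, the differences were -4.78 for Krt79, -3.93 for Krt19, -4.74 for Perp, -6.37 for Patj, 2.97 for Cdh1 and 6.03 for St14. Quantile normalization gave -4.02 for Krt19 and normexp, another background correction, 4.32 for St14, and the mean of its probes gave -6.31 for Patj. In 7 of the 7 genes past the filter the Bach2 KO and WT arrays did not overlap, 2 of them being higher and 5 lower in Bach2 KO cells. Over all genes tested, 50.5% had arrays that did not overlap in this comparison, 17.2% higher and 33.4% lower, and the median difference was -0.30.

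DKO cells were set against the same WT arrays. There Krt19 was lower by -11.77 ± 0.68 (-5.01 ± 1.83 in DKO cells with 1 of 3 arrays well above background, 6.76 ± 0.20 in WT cells) and Perp by -10.10 ± 0.65 (-4.23 ± 1.70 with 2 of 3 arrays well above background, against 5.87 ± 0.21). Leaving out DKO replicate 1 gave -12.83 for Krt19, and leaving out DKO replicate 3 gave -9.12 for Perp. Normexp gave -10.24 for Krt19 and -9.05 for Perp. Krt79 was lower by -8.42 ± 0.29, Plet1 by -7.25 ± 0.34 and Patj by -7.0 ± 0.38, while Cdh1 was higher by 2.20 ± 0.27 and St14 by 1.84 ± 0.68 (1.18 with normexp). Patj was at -5.86 as the mean of its probes and at -6.41 with normexp. The arrays of the 7 genes again did not overlap, 2 higher and 5 lower in DKO cells, against 44.9% of all genes tested, 15.8% higher and 29.1% lower. The filter kept genes that were above background in any 1 genotype, so the counts say nothing of Krt18 and Krt8.

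Loss of Bach1 in mice that kept Bach2 moved none of the 7 genes past the threshold, an adjusted p of 0.05 over all genes of the comparison in limma with Benjamini-Hochberg adjustment. Over all genes tested, 0.0605% passed in this comparison. The differences between Bach1 KO and WT cells were -0.23 ± 0.29 for Krt79, -0.08 ± 0.68 for Krt19, -0.35 ± 0.65 for Perp, -0.16 ± 0.34 for Plet1, 0.40 ± 0.27 for Cdh1 and 0.03 ± 0.38 for Patj. Their arrays overlapped, and so did those of St14, which had the highest difference with 1.91 ± 0.68 (means -2.45 ± 1.75 in Bach1 KO and -4.36 ± 0.43 in WT cells). St14 was the 1 gene of the 7 with an unadjusted p under 0.05 (0.0163, adjusted p = 0.688 by limma), and its difference was 1.09 without Bach1 KO replicate 1 and 2.83 without Bach1 KO replicate 3, with adjusted p-values of 0.964 and 0.0828. All of these arrays lay on 1 slide, where the differences were the same and no gene of the 7 passed.

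When Bach1 was lost in mice that also lacked Bach2, 5 of the 7 genes were lower past the threshold. Over all genes tested, 3.56% passed, 1.45% higher and 2.11% lower. The genes had been chosen with earlier results on these arrays in view, including mice without Bach2. Nothing is therefore read from the count against that share, and the adjusted p-values are no independent test. Plet1 was 37.0-fold lower in DKO than in Bach2 KO cells (-5.21 ± 0.34, adjusted p = 1.48e-05), with means of 0.05 ± 0.61 in DKO and 5.26 ± 0.40 in Bach2 KO cells. Krt19 differed by -7.15 ± 0.68 (adjusted p = 0.000192), by -8.21 without DKO replicate 1, the mouse whose Krt19 spot was well above background, and by -5.63 with normexp. Krt79 differed by -2.95 ± 0.29 (adjusted p = 0.000251) and Perp by -4.66 ± 0.65 (adjusted p = 0.00252), Perp by -3.69 without DKO replicate 3 and by -3.61 with normexp. St14 was 11.3-fold lower (-3.50 ± 0.68, adjusted p = 0.018), but its call ended without Bach2 KO replicate 1 or 3 (adjusted p = 0.0749 and 0.0735) and without DKO replicate 1, 2 or 3 (0.0714, 0.0569 and 0.0529), at differences of -3.34 to -3.59. Cdh1 and Patj did not pass, with differences of -0.08 ± 0.27 (adjusted p = 0.899) and 0.06 ± 0.38 (adjusted p = 0.949). Slide and genotype cannot be told apart here.

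Marker levels of these groups stand beside those results. Of the macrophage markers, Siglecf averaged -2.56 ± 0.45 in DKO and -0.59 ± 1.09 in Bach2 KO cells, and Marco -0.19 ± 0.66 in DKO and 2.62 ± 1.12 in Bach2 KO cells. Fabp1, Ear2 and Car4 were also lower in DKO than in Bach2 KO cells, by -4.14, -1.51 and -0.92. Mrc1 and Fabp4 differed by -0.36 and -0.05. Itgax (0.79), Chil3 (0.15) and Pparg (0.11) were on the higher side. In limma Fabp1, Ear2, Marco and Siglecf passed as lower (adjusted p = 0.00419, 0.00583, 0.0129 and 0.0434). Car4 (0.0531), Mrc1 (0.396) and Fabp4 (0.953) did not pass, nor did Itgax (0.109), Chil3 (0.805) and Pparg (0.834). The summed signal of 10 macrophage markers, in units of the 75th percentile, was 365 to 565 on DKO and 391 to 559 on Bach2 KO arrays, against 860 to 1440 on Bach1 KO and 1170 to 1500 on WT arrays. Their part in the fall of Krt79, Krt19, Perp and Plet1 was not tested.

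The test of whether the 2 effects of Bach1 loss differ, the interaction, was taken as the DKO minus Bach2 KO difference less the Bach1 KO minus WT difference. It passed for 4 of the 7 genes, all lower, and for 0.675% of all genes tested, 0.104% higher and 0.571% lower. The choice of the genes limits this count and its p-values in the same way, so the count is not read against that share. The interaction was -5.05 ± 0.48 for Plet1 (adjusted p = 0.000781), -7.08 ± 0.96 for Krt19 (adjusted p = 0.00654), -2.72 ± 0.41 for Krt79 (adjusted p = 0.0116) and -5.41 ± 0.96 for St14 (adjusted p = 0.0286). For Krt19 it was -8.13 without DKO replicate 1 and -5.57 with normexp, and for Plet1 it was -5.74 with quantile normalization. With the authors' deposited log2 values the calls of Krt79 (-2.73, adjusted p = 0.0517) and Krt19 (-7.09, adjusted p = 0.102) ended. Perp had -4.31 ± 0.92 and did not pass (adjusted p = 0.0654), although it passed without DKO replicate 2 (-4.88, adjusted p = 0.046) and without DKO replicate 3 (-3.33, adjusted p = 0.0125). Cdh1 with -0.48 ± 0.38 and Patj with 0.02 ± 0.54 did not pass. The call of St14 held without WT replicate 2 or 3 and without Bach1 KO replicate 1 (-4.59, adjusted p = 0.031) or 3 (-6.33, adjusted p = 0.00181), and it ended without each of the other 8 arrays, at adjusted p-values of 0.0574 to 0.0916. It also ended with the replicate number as a block (-5.41, adjusted p = 0.054), and the value was -4.58 with normexp.

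**Figure D2:**
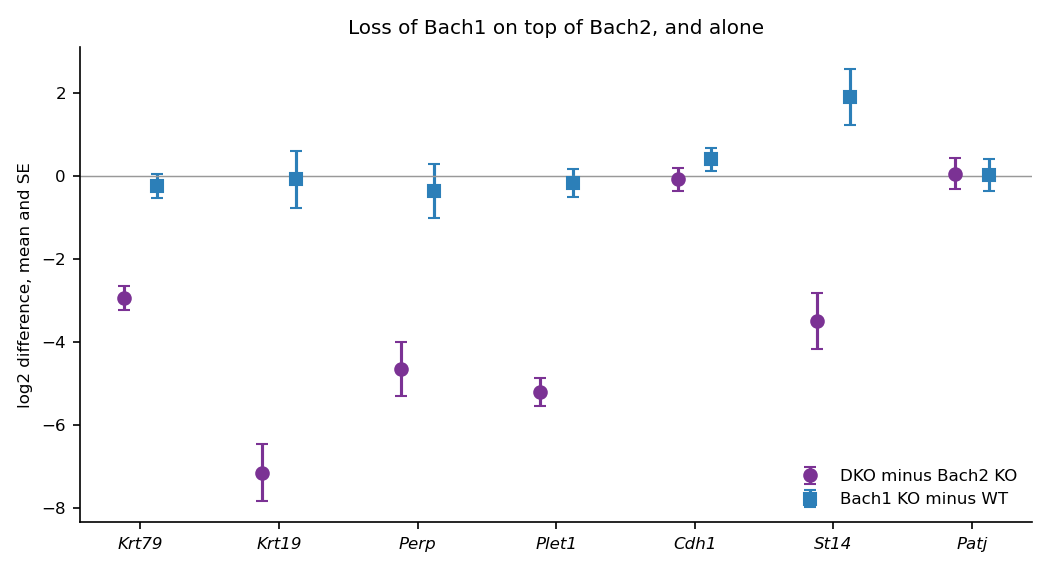
Log2 difference (mean and SE, 3 mice per genotype) between DKO and Bach2 KO cells (circles) and between Bach1 KO and WT cells (squares) for the 7 genes past the background filter. For Krt79, Krt19, Perp and Plet1 the squares lie within 0.35 of 0 and the circles at -2.95 or lower, for St14 the 2 differences point in opposite directions, and for Cdh1 and Patj both lie near 0.

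DKO and Bach1 KO cells, which share the loss of Bach1, differ again in Bach2, the contrast that was in view when the genes were chosen, so their values are a description and carry no test. Krt19 was lower in DKO cells by -11.69 ± 0.68, Perp by -9.74 ± 0.65, Krt79 by -8.19 ± 0.29, Plet1 by -7.10 ± 0.34 and Patj by -7.04 ± 0.38. Without DKO replicate 1 Krt19 differed by -12.75, and without DKO replicate 3 Perp differed by -8.77. Normexp gave -10.19 for Krt19 and -8.72 for Perp and the mean of its probes -5.71 for Patj. Cdh1 was 3.47-fold higher in DKO cells (1.79 ± 0.27), with means of 4.32 ± 0.19 in DKO and 2.53 ± 0.13 in Bach1 KO cells. St14 differed by -0.07 ± 0.68, by 0.74 without Bach1 KO replicate 1 and by -1.0 without Bach1 KO replicate 3. Over all genes tested, 26.1% passed an adjusted p of 0.05 in this comparison, 10.9% higher and 15.3% lower, and nothing is read from the 7 genes against that share.

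Plet1 and Patj had further probes, which show whether the pattern depends on the probe. The second Plet1 probe was at -2.59 ± 0.26 in DKO, 3.26 ± 0.52 in Bach2 KO, 4.72 ± 0.53 in Bach1 KO and 4.52 ± 0.52 in WT cells. In a fit over 30848 probes its DKO minus Bach2 KO difference was -5.85 ± 0.36 (adjusted p = 2e-05) and its interaction -6.05 ± 0.52 (adjusted p = 0.000741). Patj had 5 probes that carry 3 transcript accessions. The other probe of NM_172696 was at -4.99 ± 0.69 in DKO, -6.61 ± 0.62 in Bach2 KO, 3.36 ± 0.09 in Bach1 KO and 3.36 ± 0.27 in WT cells, and that of NM_001005787 at -5.24 ± 0.62, -4.89 ± 1.45, 2.25 ± 0.03 and 2.18 ± 0.24 in the same 4 genotypes. Both probes were well above background on 1 of 3 arrays in each genotype without Bach2 and on all arrays with it. The 2 probes of the transcript NM_001005784 were low in every genotype, the brighter at -2.52 ± 1.02 in DKO cells (2 arrays), -3.61 ± 0.27 in Bach2 KO cells, -3.19 ± 0.55 in Bach1 KO cells and -2.50 ± 1.07 in WT cells. The difference of Patj between genotypes was therefore seen with 3 of its 5 probes.

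**Figure D3:**
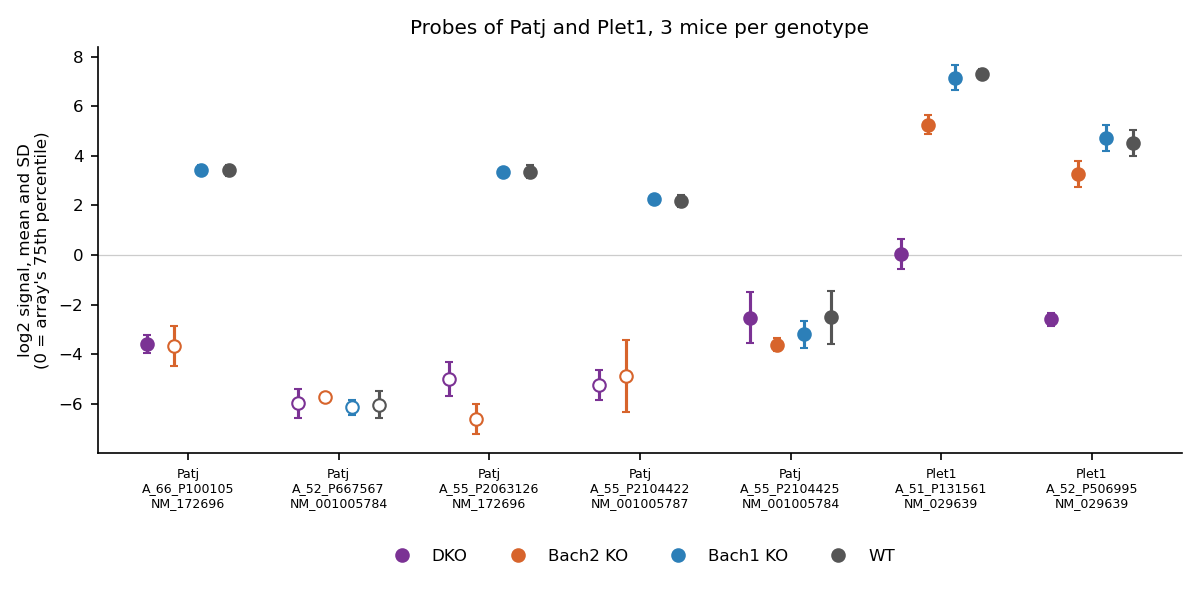
Mean and SD of the log2 signal of the 5 Patj probes and 2 Plet1 probes in DKO, Bach2 KO, Bach1 KO and WT cells (3 mice per genotype, open where fewer than 3 arrays were well above background). The Patj probes of the other 2 transcripts are high in Bach1 KO and WT cells and low in the other genotypes, both Plet1 probes show the 2 steps down, and the 2 Patj probes of NM_001005784 stay low in all genotypes.

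RefSeq promoter windows of assembly GRCm38.p6 matched 5 of the 9 genes, with 7 windows for Krt79, Krt18, Krt8, Plet1 and Patj, and the 250 bases before each start were read. Bach proteins and small Maf proteins are known to bind the Maf recognition element, which is the AP-1 element TGAGTCA preceded by TGC, so both elements were searched on both strands with the antioxidant core TGACNNNGC and with TATAAA. The windows shown belong to the 3 genes with a window that were lower without Bach2 (for Patj 2 of its 3 windows), and matches are in capitals.
Krt79, chr15:101940325-101940574, minus strand: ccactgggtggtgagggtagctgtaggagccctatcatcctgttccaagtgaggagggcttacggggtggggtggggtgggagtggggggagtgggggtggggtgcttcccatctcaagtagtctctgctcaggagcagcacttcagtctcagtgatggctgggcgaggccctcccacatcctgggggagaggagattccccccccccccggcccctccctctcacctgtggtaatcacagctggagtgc
Plet1, chr9:50494275-50494524, plus strand: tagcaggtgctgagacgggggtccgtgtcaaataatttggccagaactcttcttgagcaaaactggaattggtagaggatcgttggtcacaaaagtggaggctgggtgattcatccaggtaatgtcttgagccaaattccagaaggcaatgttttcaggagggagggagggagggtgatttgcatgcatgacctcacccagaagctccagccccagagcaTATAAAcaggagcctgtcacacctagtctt
Patj, chr4:98395576-98395825, plus strand: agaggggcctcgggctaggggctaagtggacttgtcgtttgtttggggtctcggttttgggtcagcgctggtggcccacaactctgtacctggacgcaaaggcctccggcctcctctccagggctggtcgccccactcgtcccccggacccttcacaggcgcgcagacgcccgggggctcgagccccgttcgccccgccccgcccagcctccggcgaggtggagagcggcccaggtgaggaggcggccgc
Patj, chr4:98410777-98411026, plus strand: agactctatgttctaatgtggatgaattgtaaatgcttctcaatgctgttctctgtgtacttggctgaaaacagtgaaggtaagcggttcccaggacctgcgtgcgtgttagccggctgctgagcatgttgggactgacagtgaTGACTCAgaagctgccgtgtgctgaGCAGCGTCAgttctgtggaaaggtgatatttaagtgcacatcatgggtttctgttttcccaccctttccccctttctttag
The second Patj window held TGAGTCA, read here from the opposite strand, 106 to 100 bases before the start and TGACNNNGC 81 to 73 bases before it, and the Plet1 window held TATAAA 30 to 25 bases before its start. The other windows held no match, and the Maf recognition element was in none of the 7. Of 32851 mouse promoter windows of this length, 4.46% held TGAGTCA, 0.134% the longer Maf recognition element, 10.2% TGACNNNGC and 12.4% TATAAA. A match describes letters and not a bound site.

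The genes whose pattern over the 12 arrays was most like that of each member were ranked among 13044 named genes, by the root mean square distance between log2 values that had each gene's own mean removed. Nearest to Krt79 were Fpr1, a formyl peptide receptor (distance 0.39), and the scavenger receptor Marco (0.48). Fpr1 was at -1.35 ± 0.61 in DKO, 1.53 ± 0.28 in Bach2 KO, 7.16 ± 0.19 in Bach1 KO and 7.16 ± 0.16 in WT cells. Another keratin, Krt42, was the nearest gene both to Krt19 (1.08) and to Perp (0.79), followed by Flvcr2 (1.30), a transporter first described for heme, and by the anchoring protein Akap5 (1.01). Plet1 had Pdk4 (0.62), a kinase that inhibits pyruvate dehydrogenase, and the repressor E2f7 (0.65) beside it. The neighbours of Cdh1 were the scavenger receptor Cd36 (0.22) and the motor protein Myo5a (0.32), and Cd36 was at 5.46 ± 0.28 in DKO and 5.64 ± 0.13 in Bach2 KO cells against 3.69 ± 0.11 in Bach1 KO and 3.13 ± 0.32 in WT cells. St14 lay nearest to Samd8 (0.86) and the neutrophil-attracting chemokine Cxcl3 (0.99), whose level was 0.28 ± 0.31 in DKO, 3.31 ± 0.34 in Bach2 KO, 0.21 ± 0.23 in Bach1 KO and -1.08 ± 0.58 in WT cells. Patj lay nearest to the immune receptor Pilrb2 (0.46) and the C5a receptor C5ar1 (0.52), which was at -2.03 ± 0.20 in DKO and -2.41 ± 0.44 in Bach2 KO cells against 4.44 ± 0.42 in Bach1 KO and 4.36 ± 0.39 in WT cells.

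To place these genes among their partners, 11 lists with 171 further genes of filaments, junctions, polarity, the matriptase system and epithelial regulators were examined, 169 of them on the array and 102 past the filter. In Bach2 KO against WT cells, 22 of the 102 were higher, 22 were lower and 58 did not pass, which makes 43.1% called beside 37.1% of all genes tested, where 12.4% were higher and 24.7% lower. The median difference of the 102 was -0.23 and that of all genes -0.30. Of the 44 calls, 28 held when each array was left out in turn and 16 ended without at least 1 array. Within the slide that WT shares with Bach2 KO replicates 1 and 2, 27 genes passed. Among the genes named below, the calls of Krt14, Plec, Nes, Ctnna1, Itgb7, Klrg1, Marveld3, Llgl2, Pard6g, Mpp5, Plau, Cdcp1 and Emp1 ended there (adjusted p = 0.0519 to 0.26). Without scaling the partner differences moved up with the median of all genes, and the named calls of Krt14, Lmna, Plec, Ctnnd1, Ctnna1, Llgl2, Spint1, Cdcp1 and Klf5 ended. Where WT or Bach2 KO arrays lay near background, normexp gave smaller differences for several genes, which stand beside them. In DKO against Bach2 KO cells 3 of the 102 were higher and 5 lower, or 7.84% beside 3.56% of all genes tested, and the calls of Krt42, Marveld2 and Pkp2, given below, held without each array in turn, while the other 5 ended. In Bach1 KO against WT cells 0 of the 102 passed in limma and 10 had an unadjusted p under 0.05. Leaving out WT replicate 2 brought 1 call (Cldn7, -1.99, adjusted p = 0.0333), as did leaving out Bach1 KO replicate 2 (Lin7b, 3.92, adjusted p = 0.0337).

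Among 16 other keratins past the filter, 1 was higher and 4 were lower in Bach2 KO cells (31.2% called, median -0.46). Krt42, a type I keratin, was lower by -4.92 ± 0.37 (adjusted p = 3.06e-06; means -0.46 in Bach2 KO and 4.45 in WT cells). Krt13, the type I keratin of mucosal epithelia, was lower by -3.66 ± 0.51 (0.00027; -4.31 without WT replicate 3). Krt80, a type II keratin, was higher by 5.39 ± 0.42 (3.46e-06; means 3.56 in Bach2 KO and -1.83 in WT cells). Krt14, the type I keratin of basal cells, was lower by -1.07 ± 0.32 (0.0205), a call that ended without WT replicate 1 or 3 or Bach2 KO replicate 3 (adjusted p = 0.0536 to 0.0878). Krt42 was lower again in DKO than in Bach2 KO cells, by -4.93 ± 0.37 (adjusted p = 4.49e-05, 1 of 3 DKO arrays well above background). It was the 1 partner gene of 102 with an interaction past the threshold (-5.21 ± 0.53, adjusted p = 0.00123). In the gene order of chromosome 15, Krt79 is followed by Krt78, Krt8 and Krt18, and in that of chromosome 11, Krt19 stands between Krt15 and Krt9. Krt8 and Krt18, on the same stretch as Krt79, were near background in every genotype.

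Among 11 other intermediate filament and linker genes, 1 was higher and 4 were lower (45.5% called, median -0.71). Bfsp1, a lens filament protein, was lower by -2.51 ± 0.44 (adjusted p = 0.00133). Lmna, which encodes lamins A and C, was lower by -0.97 ± 0.26 (0.013), but it was at -0.01 (0.964) after quantile normalization and at -0.28 (0.298) without scaling. Plec, which encodes the linker plectin, was lower by -1.45 ± 0.40 (0.0156), a call that ended without WT replicate 3 or Bach2 KO replicate 3 (0.0582 and 0.0661) and with quantile normalization (-0.98, 0.0596). Nes, the neural progenitor filament nestin, was higher by 1.56 ± 0.50 (0.0298), and 4 single arrays ended that call (0.06 to 0.107), while normexp gave 0.77.

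Of 13 cadherins, catenins and nectins, partners of E-cadherin, 2 were higher and 3 lower (median 0.06), and the 38.5% called are near the 37.1% of all genes. Cdh5, the cadherin of endothelium, was at least 10.3-fold higher in Bach2 KO cells (adjusted p = 5.38e-06; mean -2.36 ± 0.45, against -7.39 ± 0.45 in WT cells where no array was well above background), although normexp gave a log2 difference of 1.94, below that bound. Vcl, the actin linker vinculin, was higher by 6.32 ± 1.04 (0.000857), with 2 of 3 WT arrays well above background, and by 7.10, 7.16 and 4.71 without WT replicates 1, 2 and 3 and by 4.69 with normexp. Ctnnbip1, an inhibitor of beta-catenin, was lower by -2.82 ± 0.36 (0.00015). The catenins Ctnnd1 and Ctnna1 were lower by -1.35 ± 0.39 (0.0195) and -0.55 ± 0.19 (0.0464). These calls ended without 2 and 9 single arrays (0.0681 to 0.0827 and 0.0519 to 0.157). Ctnnd1 was at -0.77 (0.134) with quantile normalization and Ctnna1 turned to 0.29 with quantile normalization and to 0.15 without scaling. Of 3 listed genes for leukocyte partners of E-cadherin, 2 were on the array, and the RNA of these was higher. Itgb7 was higher by 2.42 ± 0.61 (0.01; 3.03 without WT replicate 3) and Klrg1 by 3.28 ± 0.91 (0.0152), with 1 of 3 WT arrays of Klrg1 well above background. The call of Klrg1 ended without WT replicate 1 or 3 (0.0613 and 0.0608), and it was at 4.37 without WT replicate 2 and at 1.52 with normexp. Zeb2, which is known to repress Cdh1 in epithelia, was higher by 1.38 ± 0.29 (0.00399; 2.0 with quantile normalization).

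Of 3 desmosome genes past the filter, Pkp2, which encodes plakophilin 2, was at least 259-fold higher in Bach2 KO than in WT cells (adjusted p = 2.41e-07; 2.29 ± 0.15, against -6.68 ± 0.93 with no WT array well above background), although normexp gave a log2 difference of 6.19, below that bound. Pkp2 was lower in DKO than in Bach2 KO cells by -2.61 ± 0.47 (adjusted p = 0.012). Among 17 tight junction genes, 5 were higher and 5 lower (58.8% called, median -0.35). Ocln, which encodes occludin, was lower by -5.72 ± 0.64 (5.9e-05, well above background in 1 of 3 Bach2 KO mice, -4.34 with normexp). The tricellulin gene Marveld2 was lower by -2.44 ± 0.24 (2.32e-05), and F11r, which encodes junctional adhesion molecule A, by -2.30 ± 0.23 (2.18e-05; -1.63 with quantile normalization). Tjp1, the scaffold ZO-1, was higher by 6.35 ± 0.92 (0.000354; 1 of 3 WT arrays well above background, 5.70 and 7.58 without WT replicates 1 and 2, and 3.62 with normexp). Cldn23 was higher by 1.62 ± 0.38 (0.00685) and Marveld3 by 1.29 ± 0.39 (0.0229). The Marveld3 call ended without WT replicate 3 or Bach2 KO replicate 1 or 3 (0.0625 to 0.0814), with quantile normalization (0.0523) and with array medians (0.0564). Marveld2 was lower again in DKO than in Bach2 KO cells, by -1.85 ± 0.24 (adjusted p = 0.0017).

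Among 12 polarity genes that work beside Patj, 4 were higher and 2 lower (50% called, median 0.77, or 0.36 with bounded genes at their bound). Scrib was lower by -1.83 ± 0.35 (adjusted p = 0.00235) and Llgl2 by -1.91 ± 0.45 (0.00733; -1.22 without scaling, 0.0992), both of the Scribble module. Prkci, the atypical protein kinase C of the Par complex, was higher by 1.04 ± 0.26 (0.00854). Pard6g was higher by 1.90 ± 0.63 (0.0332; 2.52 without WT replicate 3) and Mpp5, the Crumbs scaffold that binds Patj, by 1.01 ± 0.36 (0.0469). Both calls ended without several single arrays (0.0921 to 0.0973 for Pard6g, which was at 1.04 without WT replicate 1, and 0.0506 to 0.187 for Mpp5). Pard6g was at 0.92 with normexp and lost its call with array medians (0.0504), as Mpp5 did with quantile normalization (0.0587), array medians (0.103), normexp (0.0561) and the replicate block (0.0638).

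Of 13 genes of the matriptase system, 2 were higher and 3 lower (38.5% called, median -0.20). Epcam, an adhesion protein cleaved by matriptase, was lower by -4.73 ± 0.43 (adjusted p = 1.25e-05) and Spint1, the matriptase inhibitor, by -1.90 ± 0.33 (0.00119; -1.21 without scaling, 0.0699). Cdcp1, a surface glycoprotein that is cleaved by serine proteases, was lower by -1.16 ± 0.42 (0.0485), a call that ended without 9 single arrays (0.054 to 0.157). Plau, which encodes the urokinase that matriptase can activate, was higher by 5.15 ± 1.13 (0.00489; 1 of 3 WT arrays well above background, 4.31 without WT replicate 3, 2.92 with normexp). Mst1, the macrophage stimulating protein, was at least 4.05-fold higher (0.00872; no WT array well above background), a call that ended with normexp (1.04, 0.0731, below that bound). In the tetraspan family to which Perp is related, 3 of 4 genes were higher and none lower (median 1.34). Emp2 differed by 5.94 ± 0.77 (0.000162; 1 of 3 WT arrays well above background, 6.91 without WT replicate 2, 3.20 with normexp), Pmp22 by 1.72 ± 0.37 (0.00431; 4.36 with normexp) and Emp1 by 0.95 ± 0.21 (0.00637; 1.77 with quantile normalization). Of 9 epithelial transcription and splicing factors, Klf5 was lower by -2.30 ± 0.61 (0.0129; well above background in 1 of 3 Bach2 KO mice), a call that ended without WT replicate 3 (0.0514) and moved to -1.04 with normexp, and the other 8 did not pass.

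**Figure D4:**
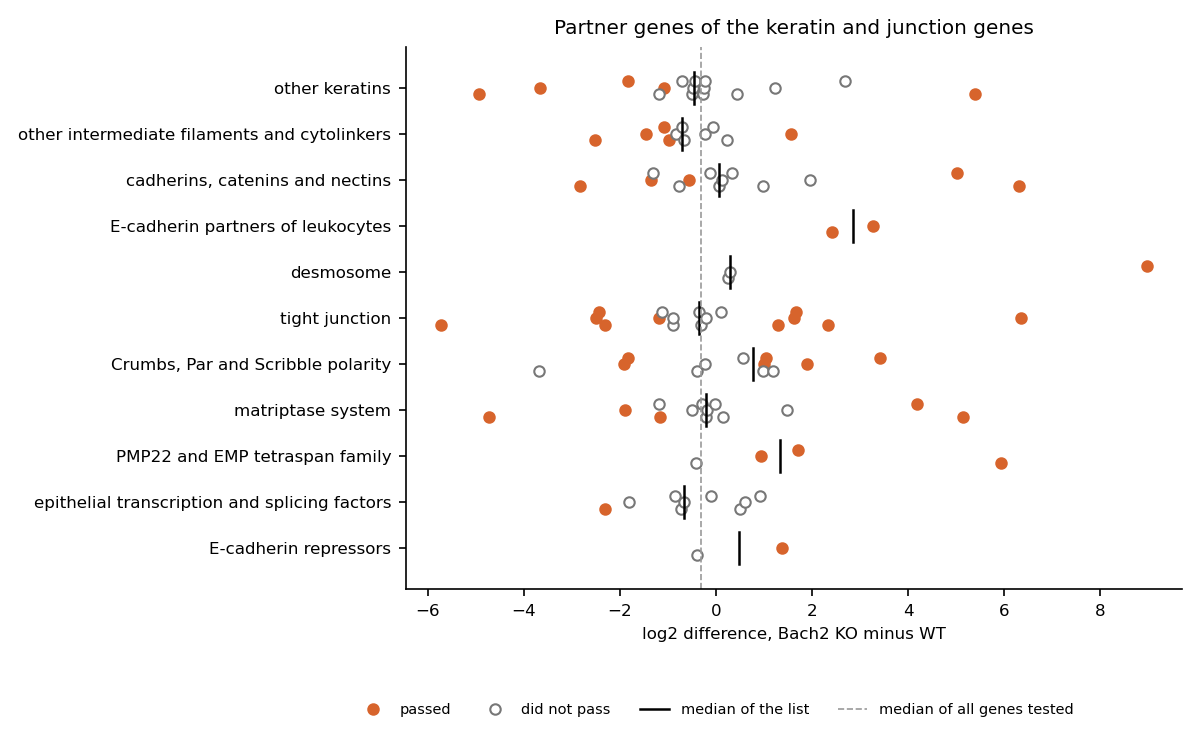
Log2 difference between Bach2 KO and WT cells for the 102 partner genes past the background filter, by list, with filled points for genes past an adjusted p of 0.05, a bar at each list's median and a dashed line at the median of all genes tested (-0.30). Genes of most lists lie on both sides, from Ocln at -5.72 to Pkp2, whose plotted 8.97 is a fitted value with all WT arrays near background.

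Markers of other cell types that lavage cells could hold were measured on the same arrays. Of 8 general epithelial markers, 3 were well above background on every array of each genotype, and their summed signal was 2.18 to 41.4 on DKO, 1.24 to 3.07 on Bach2 KO, 1.98 to 6.92 on Bach1 KO and 8.99 to 10.3 on WT arrays. Among them Grhl2 and Ovol1 were not well above background on any array, nor was Elf3 on 11 of 12 arrays. Epcam was at -1.95 ± 0.62 in Bach2 KO against 2.78 ± 0.10 in WT cells, and Esrp1 lay between 0.97 and 5.36 in DKO and between -0.31 and 1.12 in WT cells. Of 8 alveolar type 2 markers, Sftpb was well above background on 1 array of 12, and the list summed to 41.9 to 60.1 on DKO, 41.7 to 53.9 on Bach2 KO, 50 to 63.1 on Bach1 KO and 57.4 to 70.1 on WT arrays, most of it from Lamp3, Abca3 and Napsa. Of 5 alveolar type 1 markers on the array, Ager was well above background on 1 array of 12, while Hopx and Pdpn, both brighter in the genotypes without Bach2, brought the sum to 69.9 to 85.6 on DKO and 46.2 to 63.6 on Bach2 KO arrays, against 9.42 to 12.5 on Bach1 KO and 7.07 to 12.9 on WT arrays. Aqp5 of the same list was dimmer, at -6.26 ± 1.19 in DKO and -5.92 ± 0.91 in Bach2 KO cells, against -5.54 ± 0.25 in Bach1 KO and -4.06 ± 1.41 in WT cells. The airway list summed to 0.668 to 7.94 on DKO, 0.320 to 0.951 on Bach2 KO, 8.06 to 31.9 on Bach1 KO and 3.63 to 11.8 on WT arrays, and the basal and squamous list to 1.39 to 3.57 over all 12. The part of epithelial cells in the levels of the 9 genes was not tested.

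Of 6 dendritic cell markers, 5 were well above background on every array of DKO and of Bach2 KO cells and 3 on every array of Bach1 KO and of WT cells. Their summed signal was 16.5 to 44.0 on DKO and 31.4 to 42.8 on Bach2 KO arrays, against 0.334 to 2.05 on Bach1 KO and 0.285 to 1.64 on WT arrays, and Ccr7 averaged 4.46 ± 0.74 in DKO and 4.92 ± 0.22 in Bach2 KO cells, against -4.40 ± 1.10 in Bach1 KO and -2.29 ± 1.99 in WT cells. Xcr1 was well above background on 1 array of 12. Flt3 was at 0.54 in DKO and 1.26 in Bach2 KO cells, against -4.17 in Bach1 KO and -3.76 in WT cells. Cd209a was at -0.02 in DKO and 1.47 in Bach2 KO cells, against -5.60 in Bach1 KO and -7.15 in WT cells. Zbtb46 did not follow them, at -3.26 in DKO and -3.15 in Bach2 KO cells, against -2.80 in Bach1 KO and -2.89 in WT cells. The part of dendritic cells in the levels of Cdh1, Itgb7 and Klrg1 was not tested. The monocyte list summed to 2.55 to 5.38 on DKO and 1.24 to 2.21 on Bach2 KO arrays, against 0.172 to 0.34 on Bach1 KO and 0.215 to 0.6 on WT arrays. The neutrophil list summed to 7.10 to 9.96 on DKO, 0.439 to 3.59 on Bach2 KO, 14.7 to 17.9 on Bach1 KO and 8.07 to 18.2 on WT arrays. Its members differed in direction. Mmp8 was at 0.33 in DKO and -1.61 in Bach2 KO cells, against 3.35 in Bach1 KO and 3.25 in WT cells. S100a9 went the other way, at -1.13 and -3.22 against -7.65 and -6.13 in the same order. S100a8 was at 2.71, 0.13, 2.61 and 1.67 and Retnlg at -6.35, -5.42, -7.37 and -6.81. The lists of T and B cells and of fibroblasts and endothelium summed to 0.423 to 2.17 over all 12 arrays, but single members differed. Cd3g was at -1.85 ± 0.41 in DKO and -2.41 ± 0.17 in Bach2 KO cells, against -7.57 ± 0.90 in Bach1 KO and -6.85 ± 1.44 in WT cells. Pecam1 was at -1.31 in DKO and -1.38 in Bach2 KO cells, against -2.74 in Bach1 KO and -2.75 in WT cells, and Cdh5 differed as given above.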

How the data were processed

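The deposited scanner files hold background-corrected, processed spot intensity values from Agilent Feature Extraction (version 10.7.3.1 per the file headers, 9.1 per the submitters' processing notes). The deposited table of the whole series holds log2 values that matched the scanner's log2 intensity less the array's 75th percentile and less the probe's median over arrays, which is a comparison of values and not a statement in the labels, and it was used as an alternative. Here log2 of the processed intensity was scaled by each array's 75th percentile and outlier spots were left out. Probes were kept where the signal was well above background in all 3 mice of some genotype, with at least 2 values in every genotype, and the brightest probe stood for each gene. Differences were fitted with limma 3.58.1 in R 4.3.3 (data handling with data.table, version 1.17.8) on 12 arrays with 4 genotypes and 8 residual degrees of freedom, with a variance trend and Benjamini-Hochberg adjustment over all 23124 genes or transcripts of a comparison. The fit was tested on simulated data. The p-values rest on the spread between mice within genotypes, pooled for each gene over the 4 genotypes and drawn toward the variance trend. Genotypes of unlike spread share it, as for Krt19 with an SD of 1.83 in DKO and 0.20 in WT cells. Having 3 mice per genotype limits the precision. A gene near background in all mice of a genotype has a bound there: "at least" compares the brighter mean with the higher of the dim probe's own signal and the lowest signal well above background on each array. The interaction and all comparisons with DKO cells share the DKO slide, and those with WT cells share the WT arrays.

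The 9 genes, the 11 partner lists and the 11 marker lists were chosen with earlier results of these data known. Named in the text are the 9 genes, up to 3 genes per direction and list with the lowest adjusted p in Bach2 KO against WT cells, genes that passed in Bach1 KO against WT cells, defining markers and the 2 nearest genes of each gene. Cldn7, Lin7b and Esrp1 were named after their values were seen. Alternatives changed the scaling, the background correction, the filter, the choice of probe, the variance trend, the samples fitted and the block. Background correction by normexp was run on median signals with an offset of 50, chosen after seeing the data, because the mean signals planned for it were not used here. The lists hold symbols matched to the array's accessions through RefSeq names. The labels do not say what a replicate number marks. Deviations of equal-numbered Bach2 KO and DKO mice correlated over 0.1 in all 3 pairs (0.116, 0.123 and 0.118). Each other pair of genotypes held at least 1 pair below that, and mice of unequal number reached 0.2. The main fit held no term for the replicate number, so its p-values are not paired. That number entered only as a block over all genotypes, as an alternative.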

Additional observations from a re-analysis of the deposited data

Results flagged for a closer look

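The effect of losing Bach1 differed between mice without and with Bach2 for 4 genes, by the interaction test in limma. It was taken as the DKO minus Bach2 KO difference less the Bach1 KO minus WT difference. The value was -2.72 ± 0.41 for Krt79 (SE, adjusted p = 0.0116), with differences of -2.95 without and -0.23 with Bach2, and its call ended with the authors' deposited log2 values (adjusted p = 0.0517). It was -7.08 ± 0.96 for Krt19 (adjusted p = 0.00654), with -7.15 without and -0.08 with Bach2, -8.13 without DKO replicate 1 and -5.57 with normexp, and its call ended with the deposited log2 values (adjusted p = 0.102). It was -5.05 ± 0.48 for Plet1 (adjusted p = 0.000781), with -5.21 without and -0.16 with Bach2. St14 had -5.41 ± 0.96 (adjusted p = 0.0286), with -3.50 without and 1.91 with Bach2, and its call ended without any 1 of 8 arrays, as given above, and with the replicate number as a block (adjusted p = 0.054). The DKO arrays share a slide, which cannot be told apart from the genotype. The genes were chosen with earlier results on these arrays in view, so these p-values are no independent test.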

How the results depend on the processing

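Asking that a probe be well above background on all 12 arrays left 4 of the genes, Patj by another probe. It gave 2 genes called in DKO against Bach2 KO cells and 2 in the interaction. Without overlap were 3 genes in Bach2 KO and 3 in DKO against WT cells. In Bach2 KO against WT cells 28 partner genes were called, the fewer genes tested being part of its construction. Under it Patj, by that other probe, was at -1.11 in Bach2 KO and at -0.02 in DKO against WT cells. It turned to 0.67 in DKO against Bach1 KO cells. The interaction was called for 2 genes with the series table, where Krt79 had -2.73 (adjusted p = 0.0517) and Krt19 -7.09 (adjusted p = 0.102), and for 2 at an adjusted p under 0.01; the cause was not tested. Perp passed it with quantile normalization (-4.48, adjusted p = 0.0389), without scaling (-4.72, 0.0468) and with normexp (-3.28, 0.0119). Within slide 1, with fewer arrays, 27 partner genes were called. Leaving out 1 array at a time gave 4 to 5 genes called in DKO against Bach2 KO cells, 3 to 4 in the interaction and 0 in Bach1 KO against WT cells. It left 7 genes without overlap in both Bach2 KO and DKO against WT cells. Partner genes called were 32 to 46 in Bach2 KO and 0 to 1 in Bach1 KO against WT cells. The median of all genes in Bach2 KO against WT cells was -0.30, -0.13 with quantile normalization, -0.53 with array medians, 0.39 without scaling, -0.36 with normexp and -0.51 with the series table. Of the genes called there, 33.5% were higher, against 46.1%, 25.4%, 68.8%, 29.4% and 36.3% under those scalings, and of the partner genes 22 were higher and 22 lower, against 22 and 19, 17 and 26, 29 and 10, 20 and 27, and 23 and 23. Without scaling the list medians turned to 0.23 for keratins, 0.34 for tight junctions, 0.49 for the matriptase system and 0.03 for epithelial factors, and that of cadherins turned to -0.17 with array medians, -0.38 with normexp and -0.02 with the series table. With the replicate number as a block, the interaction was called for 3 genes, and St14 did not pass (adjusted p = 0.054). Then 5 genes were called in DKO against Bach2 KO cells and 0 in Bach1 KO against WT cells. Partner genes called were 42 and 0 in the comparisons of Bach2 KO and Bach1 KO with WT cells. The block changed no other call of the 9 genes, and among the called partner genes it ended those of Ctnna1, Mpp5 and Cdcp1. Over all genotypes, 6 of 18 pairs of equal number correlated over 0.1 in their deviations, at -0.143 to 0.385, beside 4 of 36 pairs of unequal number. Normexp on mean signals was not run. Signal over background limits Krt18, Krt8 and the DKO levels of Krt19 and Perp.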
